A study of Danio rerio with 20 samples.

Results

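Among the CpG sites read by amplicon bisulfite sequencing in zebrafish gonads, 64 lay in 3 amplicons that carried almost no methylation. The chromosome 23 amplicon runs from 24973689 to 24974060 and holds 19 CpGs, the chromosome 3 amplicon from 54607068 to 54607470 with 26 CpGs, and the chromosome 5 amplicon from 67992821 to 67993138 with 19 CpGs. Positions are on the genome build GRCz11, counted from 1. The 64 sites are those within these limits that had 10 or more reads in at least 4 of 5 samples of each of the 4 groups, out of 135 such CpGs in all. The amplicons were chosen by their low percent methylated over all 20 samples, so the levels are given as a description with no test. The deposited tables list positions without gene names and no annotation of this build was used here, so the amplicons are not assigned to genes, exons or promoters.

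The 20 samples were gonads from 90-day-old, laboratory-reared AB strain zebrafish. They formed a 3H set and a 6H set, each with 5 control and 5 LPS samples. Fish of the LPS groups had been exposed as larvae to lipopolysaccharide (LPS), an outer membrane component of Gram-negative bacteria, here from Pseudomonas aeruginosa. Strain, age and tissue were the same in all groups, controls included. What 3H and 6H stand for, the LPS dose, the sex of the fish and the number of fish behind a sample were not given in the sources. Since nothing says that samples came from separate fish, the p-values cover only the spread between samples as prepared, which may be technical. The tissue label could not be checked, because the files hold no expression markers.

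In vertebrates most CpGs in the genome are methylated by DNA methyltransferases, while dense clusters of CpGs, often at promoters, tend to stay free of methylation. In the gonads of fish, methylation of genes of the sex differentiation pathway has been studied because the sex of many species responds to the environment. Bisulfite converts unmethylated cytosine so that it is read as thymine, and a read counts as methylated where cytosine remains. Near 0%, the reading also includes bases that were not converted or were misread. No spike-in or cytosine outside CpGs was analysed here to measure that part, so true methylation and this background cannot be told apart.

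Each sample held between 419055 and 2046055 methylation calls, of which 42.2% to 74.5% fell on the 64 CpGs. The median number of reads per CpG in a sample was between 4042 and 43016 on chromosome 23, 1168 and 25514.5 on chromosome 3, and 1683 and 19649 on chromosome 5. Reads were not tagged by molecule, so binomial intervals cover counting error only.

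The chromosome 23 amplicon was the most even of the 3. Its 19 CpGs had means over the 20 samples from 0.462% to 0.796%, a 1.73-fold range, and single values from 0.124% to 1.70%. The lowest mean was at position 24974060, with 0.462% ± 0.203 (SD, n = 20), and the highest only 6 positions before it at 24974054, with 0.796% ± 0.338 (SD, n = 20). Each of the 380 single values, a CpG in a sample, rested on at least 1 methylated read. Pooled over all samples and CpGs, 34497 of 6013981 reads were methylated, or 0.574% (exact 95% binomial interval 0.568% to 0.580%).

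The chromosome 5 amplicon lay at nearly the same height but contained 1 CpG well under the others. Position 67992829 was at 0.265% ± 0.106 (SD, n = 20), and position 67992853, 24 bases away, had the highest mean of all 64 CpGs at 0.861% ± 0.298 (SD, n = 20). The range of CpG means was 3.25-fold. Single values reached from 0% to 1.46%, the 0 being position 67992829 in 6H control replicate 2, where 0 of 934 reads allow a level of up to 0.321%. Pooled, 19842 of 3265612 reads were methylated, or 0.608% (exact 95% binomial interval 0.599% to 0.616%).

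The chromosome 3 amplicon had the lowest floor and the highest single values. Its CpG means ran from 0.207% at 54607309 to 0.756% at 54607226, a 3.66-fold range, and single values from 0% to 6.23%. The highest mean rested on 2 samples: without 6H LPS replicate 5 and 6H control replicate 5, position 54607226 had the lowest mean of the amplicon, 0.193%, and the means ranged 3.20-fold up to 0.616% at 54607470. The median of its 520 single values was 0.211% (quartiles 0.140% and 0.445%), against 0.572% (0.440% and 0.744%) on chromosome 23 and 0.570% (0.410% and 0.755%) on chromosome 5. Values below 0.2% made up 45.8% on chromosome 3, 1.84% on chromosome 23 and 2.89% on chromosome 5. At the other end, all 17 values above 2% were on chromosome 3. Pooled, 19391 of 4392746 reads were methylated, or 0.441% (exact 95% binomial interval 0.435% to 0.448%).

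**Figure D1:**
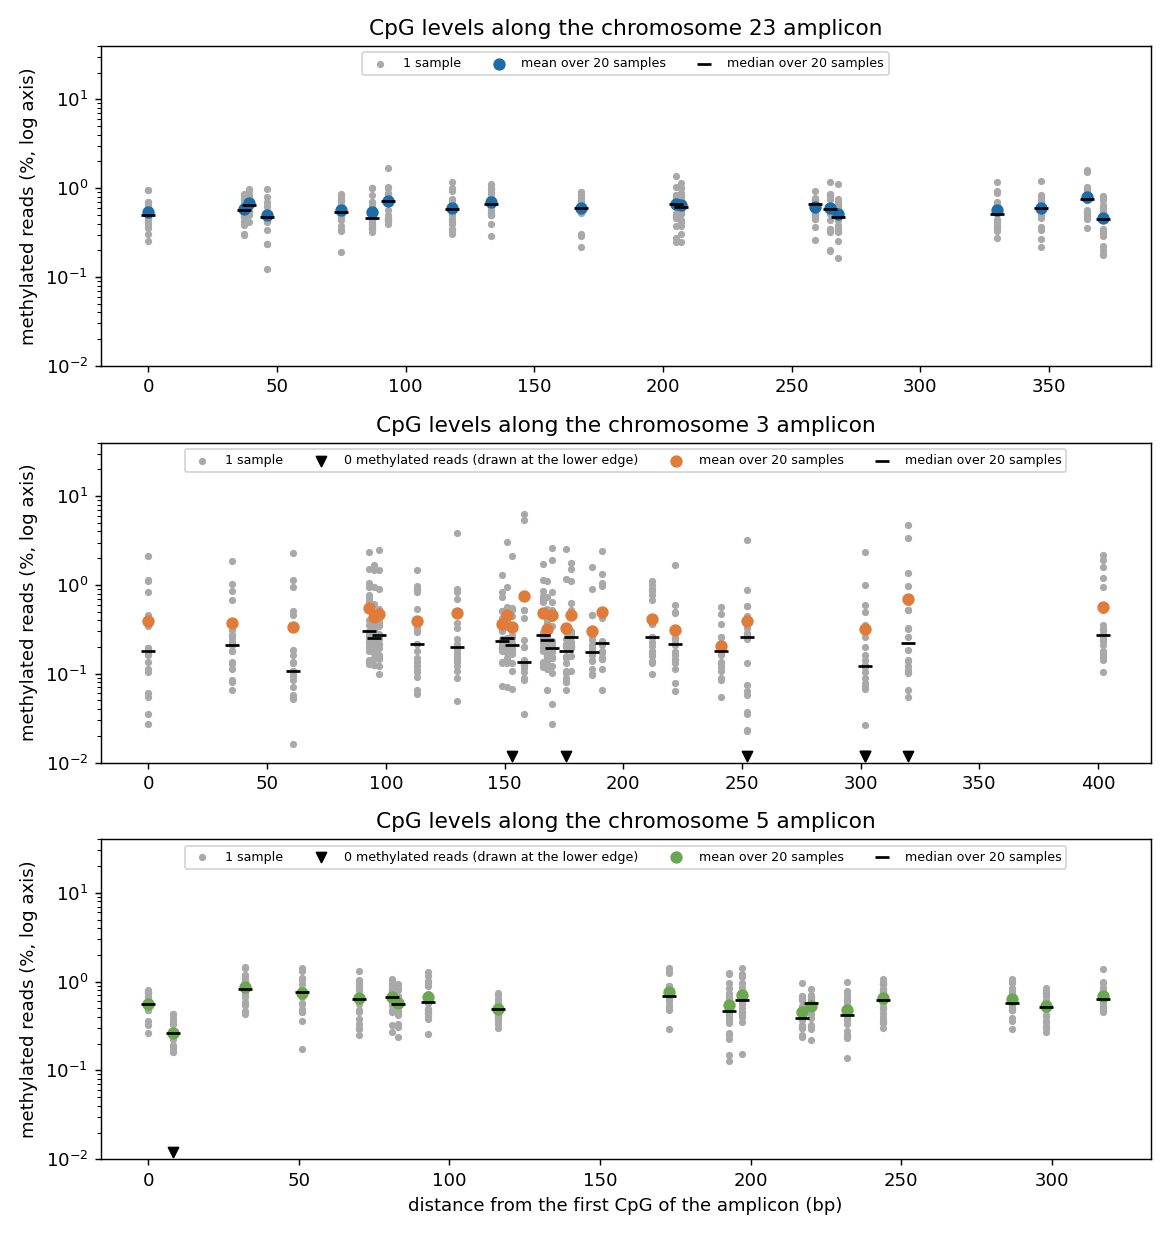
Percent of methylated reads (log axis) at each CpG against its distance in bp from the first CpG, 1 panel per amplicon; grey points are samples, coloured points means and black bars medians over 20 samples, and triangles mark values with 0 methylated reads. On chromosomes 23 and 5 means and medians nearly coincide, whereas on chromosome 3 the means lie above the medians and single samples reach up to 6.23%.

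The order of the amplicons held within samples. By the median CpG of a sample, chromosome 3 was below chromosome 23 in 20 of 20 samples, by 0.333 ± 0.0951 percentage points (SD, n = 20), and below chromosome 5 in 20 of 20, by 0.342 ± 0.105 (SD, n = 20). By the mean over CpGs, in which single high values count in full, it was lower in 18 and 19 of 20 samples. Chromosomes 23 and 5 could not be ordered: chromosome 23 was the lower in 11 of 20 samples by the mean and in 12 of 20 by the median. No test is given, since the level chose the amplicons.

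**Figure D2:**
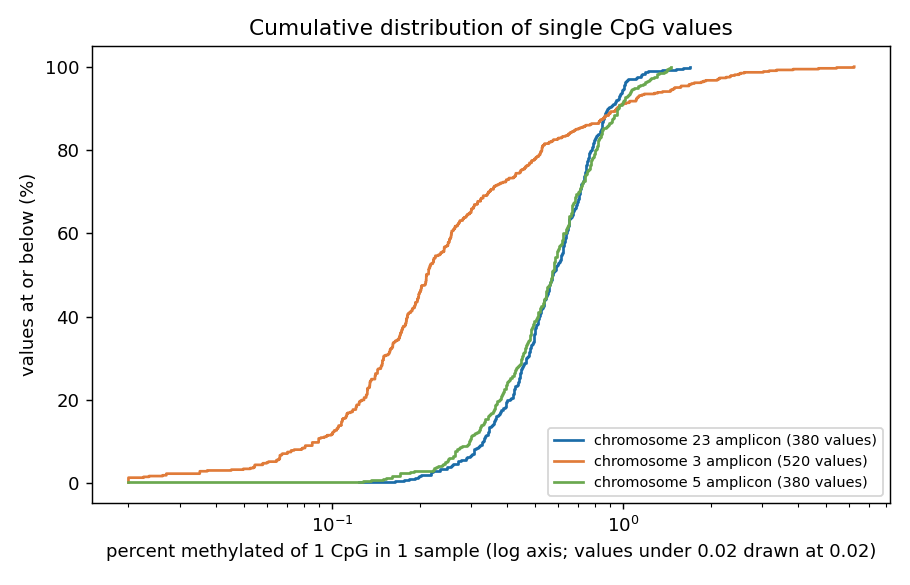
Cumulative share of single CpG values (1 CpG in 1 sample) at or below each percent methylated, on a log axis, for the 3 amplicons. The curves of chromosomes 23 and 5 almost overlie each other with medians of 0.572% and 0.570%, and that of chromosome 3 starts lower, at a median of 0.211%, but ends at 6.23%.

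High values on chromosome 3 were scattered over CpGs and samples. The 17 values above 2% lay at 15 of the 26 CpGs and in 10 of the 20 samples, with 2 in 3H LPS and 5 in each of the other groups. The most in a single sample was 4, in 6H control replicate 2, where 54607219 and 54607221 were at 3.04% and 2.13%, 54607370 at 2.35% and 54607388 at 4.70%. The 17 values rested on 1510 to 25521 reads each, and at 54607388 in that sample 860 of 18314 reads were methylated. In each of the 20 samples, the highest CpG made up between 9.63% and 43.9% of the sum over the 26 CpGs. On chromosomes 23 and 5, with 19 CpGs, this share stayed between 8.08% and 13.3% and between 7.37% and 13.0%.

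Position 54607226 gave the highest values of the 64 CpGs, in a pair of samples with the same replicate number. It stood at 6.23% (231 of 3708 reads) in 6H LPS replicate 5 and at 5.42% (1383 of 25521 reads) in 6H control replicate 5. The other 18 samples were between 0.0351% and 0.527%, with a mean of 0.193% ± 0.146 (SD, n = 18). Position 54607388 also passed 2% in a pair of samples, 6H control replicate 2 at 4.70% and 6H LPS replicate 5 at 3.37%. The other 13 CpGs did so in a single sample.

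The spread between samples exceeded counting error at nearly every CpG. The variance of a CpG over the 20 samples, divided by the variance that binomial sampling of its reads gives, had a median of 9.87 on chromosome 23 (3.78 to 14.1), 26.8 on chromosome 3 (3.12 to 125) and 4.28 on chromosome 5 (0.659 to 10.3). The lowest of these ratios, under 1, belonged to 67992829 on chromosome 5, and the highest to 54607226. With deviations taken from group means the medians were 8.41, 26 and 4.23. The median SD of a CpG over the samples was 0.219, 0.530 and 0.221 percentage points on chromosomes 23, 3 and 5, against CpG means below 0.9% throughout.

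From sample to sample, CpGs of an amplicon mostly varied separately. Over pairs of CpGs, the median correlation of their deviations from group means was 0.0195 on chromosome 23 (171 pairs), -0.00245 on chromosome 3 (325 pairs) and -0.0143 on chromosome 5 (171 pairs). Direct neighbours had medians of -0.0332, -0.0436 and -0.0424, although single neighbouring pairs reached 0.501, 0.946 and 0.396. These are descriptions over 20 samples that share libraries and reads. Levels did not follow the position either, with Spearman rho over CpGs of 0.0860, -0.0653 and -0.144.

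Group means of the CpGs resembled each other more on chromosome 5 than on chromosome 3. Between any 2 of the 4 groups, the CpG means correlated with Pearson r from 0.466 to 0.750 on chromosome 5 (19 CpGs), from 0.0834 to 0.638 on chromosome 23 (19 CpGs) and from -0.464 to 0.423 on chromosome 3 (26 CpGs). Spearman rho ran from 0.360 to 0.684, from 0.0158 to 0.581 and from -0.463 to 0.145 in the same order of amplicons. The groups share no samples, and these values too are descriptions. On chromosome 5, position 67992829 was low and position 67992853 high in each group, with group means from 0.223% to 0.302% and from 0.776% to 0.977%. Read depth at 67992829 was reduced in 12 of the samples, as given below.

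Read depth was flat along each amplicon except at 2 CpGs. At 62 of the 64 CpGs, every sample had between 96.9% and 100.2% of its median number of reads over the amplicon. The exceptions were 24974054 on chromosome 23 and 67992829 on chromosome 5, and there depth fell on separate levels. At 24974054, 11 samples had at least 99.6% of the amplicon's median depth, 4 had 48.3% to 51.1% and 5 had 33.6% to 35.1%. At 67992829, 8 samples had 97.3% to 98.3%, 8 had 29.1% to 43.5% and 4 had 4.72% to 5.77%. These 2 CpGs also had the highest mean of chromosome 23 and the lowest mean of chromosome 5.

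The depth levels were spread unevenly over the groups. At 67992829, full depth was seen in 4 of 5 3H controls, 2 of 5 3H LPS, 0 of 5 6H controls and 2 of 5 6H LPS samples, and the lowest level in 3 6H controls and 1 3H LPS sample. At 24974054, full depth was seen in 2 of 5, 2 of 5, 3 of 5 and 4 of 5 samples in the same order of groups, the middle level in 3 3H controls and 1 6H control, and the lowest level in 3 3H LPS, 1 6H control and 1 6H LPS. The methylation read at these CpGs overlapped between depth levels, with 0.161% to 0.432% at full depth and 0% to 0.428% at the lowest level of 67992829. At 24974054 it was 0.356% to 0.975% at full depth, 0.481% to 1.61% at the middle level and 0.466% to 1.52% at the lowest. The 2 highest values there, 1.61% in 3H control replicate 2 and 1.52% in 6H LPS replicate 1, were thus from samples of reduced depth. What set the depth was not tested.

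**Figure D3:**
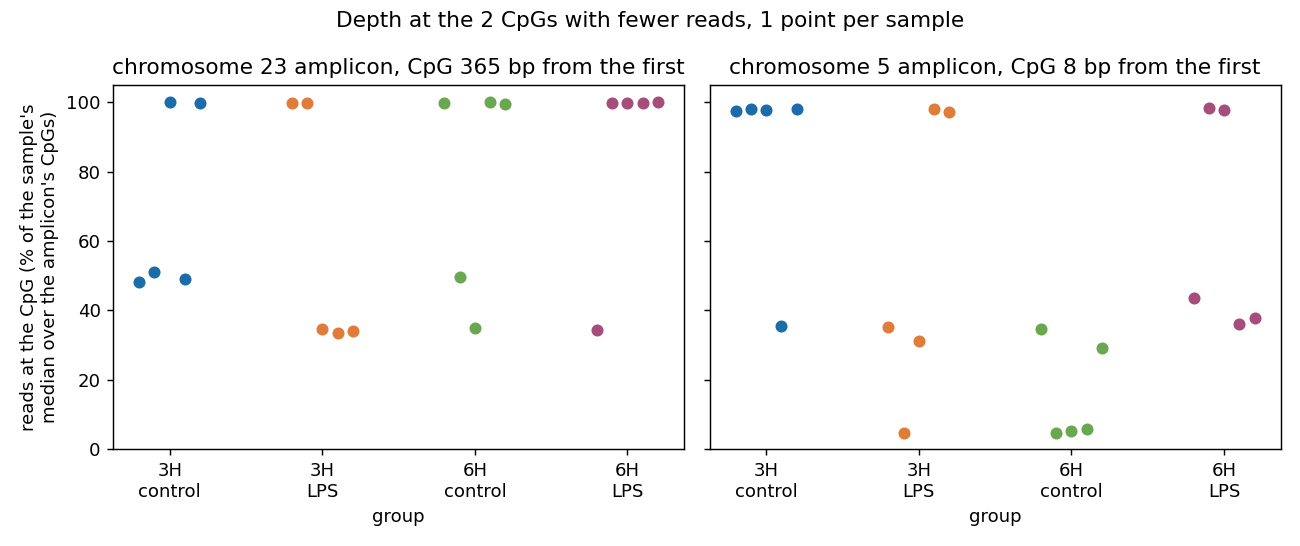
Reads at 24974054 (left) and 67992829 (right) as a percent of the sample's median reads per CpG of the amplicon, 1 point per sample, by group. Points fall on 3 separate levels in each panel, the lowest at 33.6% to 35.1% on the left and at 4.72% to 5.77% on the right.

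Within the limits of the 3 amplicons, 47 further positions had reads but missed the coverage rule. They held at most 0.0624% of an amplicon's calls, and 5 methylated calls in all. Just outside the rule were 67992986 and 67992865, with 10 or more reads in 18 and 17 samples but in only 3 and 2 of the 6H LPS samples, and with 0 methylated of 588 and 537 reads. No tested CpG lay near the limit on its inner side: the shallowest was 67992829, with at least 276 reads in every sample. Of the 47 positions, 8 on chromosome 3 and 4 on chromosome 5 lay on the base directly after the position of a tested CpG. They were therefore not separate CpGs.

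Few other tested CpGs came near the level of the amplicons. The highest mean among the 64 was 0.861%, and of the other 71 tested CpGs, the lowest mean at a median depth of at least 100 reads was 2.21%. Another 3 CpGs, all on chromosome 18, were at 0% to 0.198%, but with a median of 20.5 to 37.5 reads and a total of 1 methylated read. The 3 amplicons held 5.11, 6.45 and 5.97 tested CpGs per 100 bp on chromosomes 23, 3 and 5. The 2 partly methylated regions, with means of 16.6% and 17.9%, held 4.85 and 5.54, and the 3 mostly methylated ones 1.81, 2.79 and 4.06.

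For the 3H set, LPS samples were compared with controls to ask whether larval exposure was followed by a difference in gonads at 90 days. LPS samples were lower in the chromosome 23 and chromosome 5 amplicons. On chromosome 23 the controls had 0.715%, 0.803%, 0.678%, 0.626% and 0.757% and the LPS samples 0.493%, 0.481%, 0.580%, 0.515% and 0.551% in replicates 1 to 5. On chromosome 5 the controls had 0.762%, 0.684%, 0.722%, 0.650% and 0.740% and the LPS samples 0.492%, 0.559%, 0.516%, 0.608% and 0.575%. In both, all LPS samples were below all controls. The ratio of LPS to control was 0.732 on chromosome 23 (difference -0.192 percentage points, exact permutation interval -0.276 to -0.105) and 0.773 on chromosome 5 (-0.162, interval -0.229 to -0.0907). Both had exact permutation p = 0.00794 and adjusted p = 0.0317 over 8 regions, and they were the only regions called, 25% of those tested. By the median CpG both calls were lost (permutation adjusted p = 0.0635 for both) and the groups overlapped. The medians on chromosome 23 were 0.509% in 3H control replicate 4 and 0.588% in 3H LPS replicate 3. Those on chromosome 5 were 0.595% in 3H control replicate 4 and 0.618% in 3H LPS replicate 4. Both calls were also lost without 3H LPS replicate 1, 2, 4 or 5 (permutation adjusted p = 0.0635 in each case). The groups still did not overlap in these omissions. Over omissions of each sample in turn, the differences ranged from -0.214 to -0.170 on chromosome 23 and from -0.177 to -0.147 on chromosome 5. Neither difference could pass with the replicate number as a block, whatever its size, because too few arrangements exist. The sources do not say whether a control and an LPS sample of the same number form a pair. The LPS libraries were deeper on chromosome 23, with a median of 15303 reads per CpG (11046 to 43016) against 9403 (4974 to 24715) in controls. On chromosome 5 they were shallower, with 5143 (3326 to 14405) against 12196 (4037 to 14035). The part of depth in these differences was not tested.

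On chromosome 3 the 3H groups overlapped. Controls had 0.481%, 0.522%, 0.364%, 0.242% and 0.643%, and LPS samples 0.276%, 0.443%, 0.405%, 0.137% and 0.309%. The difference of -0.136 percentage points had an exact permutation interval from -0.356 to 0.0667 (adjusted p = 0.402). By the median CpG it was -0.0898. The LPS libraries were shallower there, with 1168 to 7627 median reads per CpG against 3986 to 20745 in controls, and the part of depth in the result was not tested.

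At the level of single CpGs, the lower readings in 3H LPS were many and small. The LPS mean was below the control mean at 18 of 19 CpGs on chromosome 23, 16 of 19 on chromosome 5 and 18 of 26 on chromosome 3. Together this is 52 of 64 or 81.2%, beside 71.9% of all 135 tested CpGs. EdgeR called 0 of the 64 at an adjusted p of 0.05, as of all 135 (0%), while 12 had an unadjusted p under 0.05 (14 of all 135); limma called 0, with 14 (17 of all 135). Groups did not overlap at 2 CpGs, 24973822 and 67992872, and 1.48% of all tested CpGs did so. At 67992872, controls ranged from 0.798% to 1.41% and LPS samples from 0.172% to 0.783% (log2 odds difference -1.10 by edgeR, with adjusted p = 0.161). The CpG with the smallest p went the other way: at 54607163 on chromosome 3, LPS samples had 1.69%, 0.397%, 1.46%, 0.360% and 0.957% and controls 0.309%, 0.445%, 0.217%, 0.149% and 0.125% (log2 odds difference 1.86 by edgeR, adjusted p = 0.0609). It was called without 3H control replicate 2 or 3H LPS replicate 2 or 4 (edgeR adjusted p = 0.0439, 0.0494 and 0.010). The CpG with the smallest p on chromosome 23, 24973894, differed by -0.487 percentage points (edgeR adjusted p = 0.109, and 0.0326 without 6H control replicate 4). That sample is outside this comparison and shares only the edgeR estimate of the spread. The log2 odds difference was -1.05 with and without it.

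**Figure D4:**
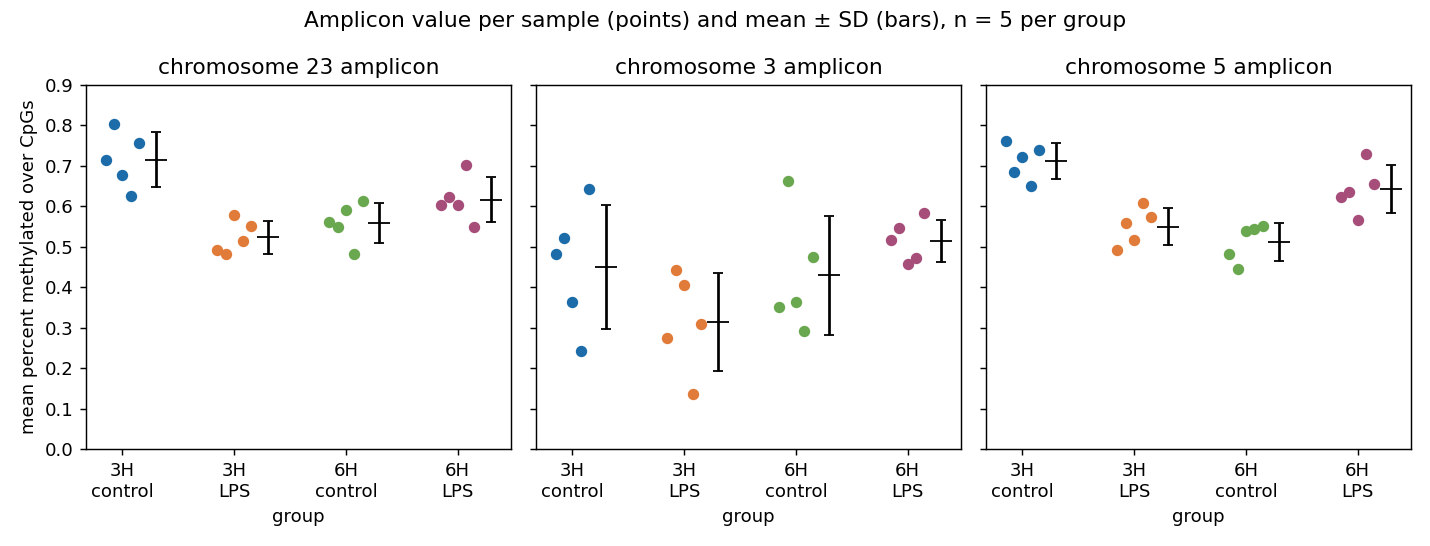
Mean percent methylated over the CpGs of each amplicon for every sample, by group, with mean ± SD (n = 5) beside the points. On chromosomes 23 and 5 the 3H controls have the highest group mean, 0.716% and 0.712%, and all 3H LPS samples lie below all of them, while 6H LPS samples overlap them; on chromosome 3 the 3H groups overlap.

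In the 6H set the LPS mean was the higher in each amplicon, and no difference passed. On chromosome 5, controls had 0.482%, 0.445%, 0.540%, 0.545% and 0.553% and LPS samples 0.624%, 0.635%, 0.565%, 0.730% and 0.656%, without overlap. The ratio was 1.25 (difference 0.129 percentage points, exact permutation interval 0.0516 to 0.211, p = 0.00794, adjusted p = 0.0635). That p is the smallest possible for 5 against 5, so a lone region could not pass over 8. On chromosome 23, controls had 0.560%, 0.549%, 0.591%, 0.481% and 0.613% and LPS samples 0.603%, 0.623%, 0.603%, 0.702% and 0.549%. The groups overlapped (difference 0.0573, exact permutation interval -0.0106 to 0.141). On chromosome 3, controls had 0.352%, 0.664%, 0.365%, 0.292% and 0.475% and LPS samples 0.518%, 0.546%, 0.458%, 0.472% and 0.583% (difference 0.0858, exact permutation interval -0.0813 to 0.228). No region was called (0% of 8). On chromosome 5 the LPS libraries had 1683 to 7638 median reads per CpG and the controls 4784 to 19649. On chromosome 23 the LPS libraries had 4042 to 36844 and the controls 10381 to 26872, and on chromosome 3 they had 2467 to 8363.5 and 8044 to 25514.5. The part of depth was not tested.

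The LPS mean of the 6H set was above the control mean at 18 of 19 CpGs on chromosome 5, 12 of 19 on chromosome 23 and 17 of 26 on chromosome 3. This is 47 of 64 or 73.4%, beside 67.4% of all tested CpGs, while 17 members or 26.6% lay below 0, beside 31.1%. EdgeR called 0 of the 64 (0.741% of all 135), with 8 at an unadjusted p under 0.05 (10 of all 135), and limma likewise called 0 with 8 (10 of all 135). At 67993018 on chromosome 5 the groups did not overlap, as did 1.48% of all tested CpGs: controls had 0.154%, 0.510%, 0.453%, 0.398% and 0.450%, LPS samples 1.21%, 0.765%, 0.799%, 1.13% and 0.957%. The log2 odds difference there was 1.34 (edgeR adjusted p = 0.0889). At 54607246 on chromosome 3, LPS replicates 1, 3 and 4 were at 1.76%, 1.51% and 1.12% while LPS replicate 5 was at 0.108%, below all 5 controls, which lay between 0.157% and 0.289%. This CpG was called without LPS replicate 5 (edgeR adjusted p = 0.00152), the sample that went against the difference. Of the 20 omissions of a sample, 17 left 0 of the 64 CpGs called. Position 54607259 was called without 3H control replicate 1 or 6H LPS replicate 3 (edgeR adjusted p = 0.0466 and 0.0294). The 3H control is outside this comparison, and the log2 odds difference was 1.99 with and without it. On chromosome 23 the smallest p was at 24973782, with a difference of 0.353 percentage points (edgeR adjusted p = 0.324).

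Among controls, the 6H set was compared with the 3H set. The 6H controls were lower on chromosome 23, at a ratio of 0.781 (difference -0.157 percentage points, exact permutation interval -0.244 to -0.0660), and on chromosome 5, at 0.721 (-0.199, interval -0.276 to -0.124). Neither pair of groups overlapped, and both had exact permutation p = 0.00794 and adjusted p = 0.0317, again the only calls among 8 regions (25%). The 3H controls are the same samples as in the comparison with 3H LPS above, so these calls are not independent of those. Each call was lost when any of the 6H controls, replicate 1, 2, 3, 4 or 5, was left out (permutation adjusted p = 0.0635). The groups still did not overlap in these omissions. Over omissions of each sample in turn, the differences ranged from -0.179 to -0.135 on chromosome 23 and from -0.214 to -0.182 on chromosome 5. By the median CpG both calls were lost as well (permutation adjusted p = 0.190 on chromosome 23 and 0.0635 on chromosome 5). With the replicate number as a block neither difference could pass. On chromosome 5 the medians did not overlap, with 0.463% to 0.543% in 6H controls and 0.595% to 0.795% in 3H controls. There 0.0635 is the least that a lone region can reach over 8. The 6H controls were the deeper on chromosome 23, with a median of 17646 reads per CpG (10381 to 26872) against 9403 (4974 to 24715), and on chromosome 5, with 13484 (4784 to 19649) against 12196 (4037 to 14035). The part of depth here was not tested. On chromosome 3 the difference was -0.0208 (exact permutation interval -0.240 to 0.207), and it was 0.0273 without 3H control replicate 5 and 0.0134 without 6H control replicate 4. There too the 6H controls were the deeper, with a median of 14889 reads per CpG (8044 to 25514.5) against 8091 (3986 to 20745). The part of depth was not tested there either.

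The 6H control mean was lower at 16 of 19, 17 of 19 and 13 of 26 CpGs on chromosomes 23, 5 and 3, in all 46 of 64 or 71.9%, beside 63% of all tested CpGs, and above 0 at 18 of 64, beside 34.8%. EdgeR and limma each called 0 of the 64 and 0% of the 135, with 12 members at an unadjusted p under 0.05 by either tool, which were all such CpGs among the 135. The 3 CpGs without overlap, 24973957, 54607259 and 67992891, all had lower 6H controls, and groups did not overlap at 2.22% of the 135. Position 54607309 on chromosome 3, the lowest of that amplicon, went the other way, at 0.142% ± 0.0626 in 3H controls and 0.369% ± 0.152 in 6H controls (SD, n = 5 each; edgeR log2 odds difference 1.32, adjusted p = 0.0967). It was called without 6H control replicate 5 (edgeR adjusted p = 0.0235), and 54607259 without 3H control replicate 4 (edgeR adjusted p = 0.0320).

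Between the LPS-exposed groups, 6H samples were the higher in each amplicon. The differences were 0.201 percentage points on chromosome 3 (exact permutation interval 0.0671 to 0.341), where the groups did not overlap and the ratio was 1.64, 0.0920 on chromosome 23 (0.0230 to 0.165) and 0.0923 on chromosome 5 (0.0111 to 0.172). The exact permutation p values were 0.00794, 0.0238 and 0.0238, and none passed over 8 regions (adjusted p = 0.0635 for each; 0% called). By the median CpG the chromosome 3 difference was 0.0634. Median reads per CpG on chromosome 23 were 9531 in 6H LPS and 15303 in 3H LPS samples. They were 4651 and 2844 on chromosome 3, and 2925 and 5143 on chromosome 5, in the same order. The part of depth was not tested. The 6H LPS mean was higher at 51 of 64 CpGs or 79.7%, beside 74.8% of all tested. EdgeR called 0 (0% of 135) with 12 at an unadjusted p under 0.05 (13 of all 135), and limma 0 with 12 (12 of all 135). The smallest p was at 54607246, at 0.226% ± 0.0320 in 3H LPS and 0.987% ± 0.697 in 6H LPS samples (SD, n = 5 each; edgeR log2 odds difference 1.91, adjusted p = 0.253). It was called without 6H LPS replicate 5 (edgeR adjusted p = 0.00312).

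The LPS difference of the 6H set minus that of the 3H set was above 0 in each amplicon. Chromosome 23 gave 0.249 percentage points, with adjusted p = 0.000378 (permutation p = 9.45e-05), chromosome 5 gave 0.291, with adjusted p = 0.000252 (permutation p = 3.15e-05, the smallest this test can give), and chromosome 3 gave 0.222, with adjusted p = 0.151 (permutation p = 0.0568). The last passed without 6H control replicate 2 (permutation adjusted p = 0.0331). Of the 8 regions, 25% were called. This test is approximate and uses the same 20 samples as the comparisons above, so it does not add to them independently. With the replicate number as a block, chromosomes 23 and 5 kept their calls. On chromosome 23, LPS libraries were the deeper in the 3H set, with a median of 15303 reads per CpG against 9403. In the 6H set controls were the deeper there, with 17646 against 9531. On chromosome 5, controls were the deeper in both sets, with 12196 against 5143 and 13484 against 2925. So they were on chromosome 3, with 8091 against 2844 in the 3H set and 14889 against 4651 in the 6H set. The part of depth was not tested. At single CpGs the value was above 0 at 17 of 19, 18 of 19 and 15 of 26 CpGs on chromosomes 23, 5 and 3, in all 50 of 64 or 78.1%, beside 73.3% of all tested.

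**Figure D5:**
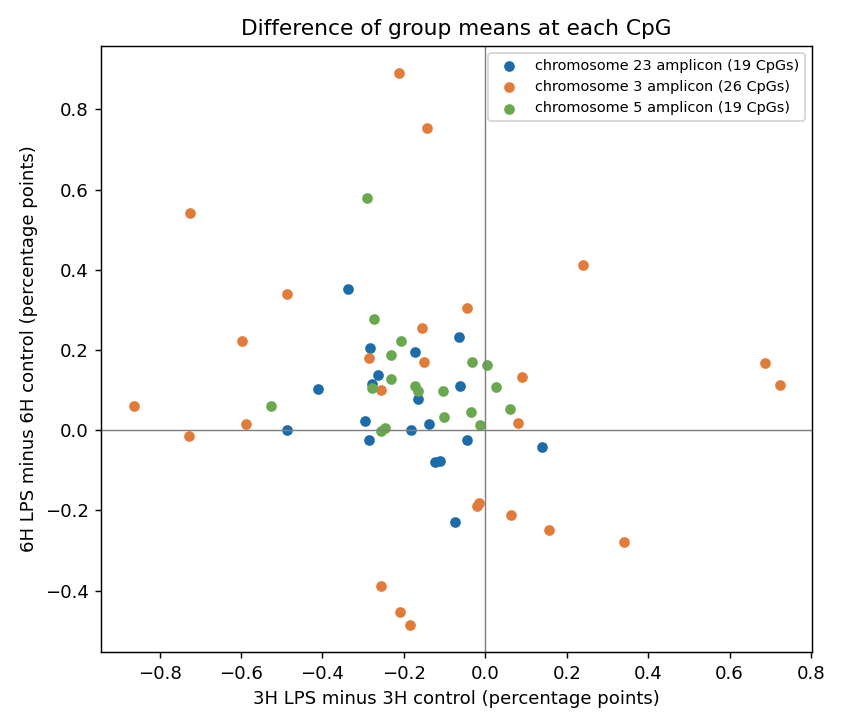
Difference of group means, LPS minus control, at each of the 64 CpGs in the 3H set (horizontal axis) and in the 6H set (vertical axis), in percentage points. CpGs of chromosome 5 crowd in the upper left, lower in 3H LPS and higher in 6H LPS. Those of chromosome 23 lie mostly to the left, with 12 above 0 and 7 below 0 in the 6H set. CpGs of chromosome 3 scatter more widely, from -0.863 to 0.723 in 3H.

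With edgeR, 1 of the 64 CpGs passed between the sets, 54607259 on chromosome 3 (log2 odds difference 3.88, edgeR adjusted p = 0.0303; 0.741% of 135 called), and limma called the same CpG (limma adjusted p = 0.0314). Its values were 2.42%, 0.445%, 1.05%, 0.232% and 0.477% in 3H controls and 0.176%, 0.0662%, 0.428%, 0.113% and 0.210% in 3H LPS samples. They were 0.149%, 0.147%, 0.148%, 0.181% and 0.149% in 6H controls and 1.32%, 0.527%, 0.172%, 0.502% and 0.971% in 6H LPS samples. The 6H controls thus lay close together, below every 3H control, while 3H LPS replicates 2 and 4 were lower still. The call was lost without 3H LPS replicate 1, 2, 4 or 5, 6H control replicate 1, 2, 3 or 4, or 6H LPS replicate 1, 2 or 4 (edgeR adjusted p from 0.0502 to 0.0871). Further CpGs passed without single samples: 24973782 without 3H control replicate 4 or 6H control replicate 5, 67993038 without the latter, 67993018 without 3H control replicate 3, and 54607246 without 6H LPS replicate 5 (edgeR adjusted p from 0.00615 to 0.0407).

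Counted by CpG, 3H controls had the highest of the 4 group means at 32 of the 64 CpGs, or 50%, beside 45.9% of all tested. They did so at 13 of 19 CpGs on chromosome 23, 12 of 19 on chromosome 5 and 7 of 26 on chromosome 3. At 19 CpGs or 29.7% the highest group was 6H LPS (29.6% of all tested), and at 5 or 7.81% it was 3H LPS (7.41%). The lowest group was 3H LPS at 30 CpGs or 46.9% (39.3% of all tested) and 6H controls at 22 or 34.4% (30.4%). The amplicons differed in which was lowest: 3H LPS at 11 of 19 CpGs on chromosome 23 and 6H controls at 11 of 19 on chromosome 5. These shares lie near those of all tested CpGs.

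Samples that were high in an amplicon were not clearly high in another once group means were removed. Over 20 samples, deviations of chromosomes 23 and 3 correlated with Pearson r = 0.363 (permutation p = 0.166, adjusted p = 0.499) and Spearman rho = 0.359 (permutation p = 0.165, adjusted p = 0.496), with r = 0.425 when the 2 farthest samples were left out. For chromosomes 5 and 3 these were r = -0.0970 (permutation p = 0.691, adjusted p = 0.829) and rho = -0.113 (permutation p = 0.655, adjusted p = 0.786), with r = -0.128 without the 2 farthest. For chromosomes 23 and 5 they were r = 0.291 (permutation p = 0.254, adjusted p = 0.508) and rho = 0.274 (permutation p = 0.279, adjusted p = 0.559), with r = 0.221. On chromosome 23, r was -0.464 between log10 of the reads per CpG and the level within groups (permutation p = 0.0666, adjusted p = 0.399). There rho was -0.508 (permutation p = 0.0373, adjusted p = 0.224) and r was -0.403 without the 2 farthest. Of the 6 relations computed, which include depth on chromosomes 3 and 5, none passed after adjustment.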

How the data were processed

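Targeted bisulfite amplicon sequencing was run on 20 gonad samples. Per the labels' protocols, phenol-chloroform extracts were bisulfite-converted with a kit. Per the submitters' processing notes, Bismark with Bowtie2, FastQC 0.11.6 and Trim Galore 0.4.5 were used with the build GRCz11; no source states their settings. The deposited files list, per the file headers, the count of methylated and of unmethylated reads per position and the percent methylated, which equalled the percent recomputed from the deposited counts. CpGs needed 10 reads in at least 4 of 5 samples of each group; samples below that did not enter the CpG's values. Regions (8 in all) were runs of 3 or more tested CpGs with gaps up to 500 bp.

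An amplicon's value in a sample was the unweighted mean percent over its CpGs. Differences between groups had unadjusted test-inversion intervals at 95% and two-sided exact permutation p-values, the latter adjusted by Benjamini-Hochberg over the 8 regions. For the difference of LPS effects between sets, samples of each treatment changed sets in every possible arrangement after set means were removed, an approximate test. Single CpGs went into edgeR 4.0.16 under R 4.3.3 (quasi-likelihood, 1 intercept per sample, all 20 samples) and limma 3.58.1 (0.5 added to both counts), adjusted over 135 CpGs at 0.05. The edgeR fit and the permutation tests were tried on simulated data with a fixed spread that was not fitted to these CpGs. Limma was not tried in this way. Correlations used permutations within groups. Values and figures came from Python 3.11.15 with scipy 1.17.1, matplotlib 3.10.9, pandas 2.3.3 and numpy 2.4.6. Alternatives were coverage minimums of 5, 30 and 100, CpGs covered in all 20 samples, pooled reads, medians, the log2 scale, omission of the highest CpG, compared samples alone, a replicate block and omission of each sample; omission of the 2 CpGs of reduced depth was added after seeing the data.

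The amplicons and tests were chosen with earlier results of these data known. Named CpGs were, per amplicon, those with the highest and lowest mean, the widest range of group means, the smallest edgeR p in each comparison and any past the threshold; other named CpGs were chosen after their values were seen. Within a set, the sample titles give a control and an LPS sample the same L number, here called the replicate number. No source says whether it marks a pair. Same-numbered samples did not deviate together in every pair, which cannot show that they were unpaired. The main tests took the samples as unpaired. No sequence is shown, as no genome of this build was used.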

Additional observations from a re-analysis of the deposited data

Results flagged for a closer look

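Of 76 groups of 5 samples, taken over the 3 amplicons and 16 named CpGs, 8 held a sample far from the other 4. Chance gives about 1 in 20, or 3.8 if groups were independent, which they are not. Because the 16 CpGs were named for their levels or differences in these same data, the count of 8 cannot be measured against chance. Position 54607226, for instance, was named for a highest mean that rested on the 2 samples flagged below. On chromosome 3, position 54607226 was at 5.42% in 6H control replicate 5, with the other 6H controls from 0.104% to 0.201%, and at 6.23% in 6H LPS replicate 5, with the others from 0.129% to 0.527%. Position 54607259 was at 0.181% in 6H control replicate 4, with the others from 0.147% to 0.149%.

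On chromosome 23, position 24974054 was at 1.61% in 3H control replicate 2 (others 0.481% to 0.762%) and at 0.569% in 6H control replicate 3 (others 0.868% to 0.975%); both samples had reduced depth there, as did 3H control replicates 1 and 4 and 6H control replicate 2, which did not stand apart. Position 24973894 was at 0.249% in 6H control replicate 4 (others 0.676% to 0.743%), and 24973782 at 0.864% in 6H control replicate 5 (others 0.395% to 0.501%). On chromosome 5, position 67992853 was at 1.19% in 6H control replicate 4 (others 0.593% to 0.723%).

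The difference between LPS and control samples differed between the 3H and 6H sets by 0.249 percentage points in the chromosome 23 amplicon, by 0.291 in the chromosome 5 amplicon, and at 54607259 by 3.88 on the log2 odds scale.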

How the results depend on the processing

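Values near 0% limit what can be read: 7 of the 1280 single values were 0, and conversion was not measured. The 20 results compared here kept direction and call with coverage minimums of 5, 30 and 100 reads, with CpGs covered in all samples and without the 2 CpGs of reduced depth. Each of the 64 CpGs had at least 276 reads in every sample. Minimums of 30 and 100 and the rule of all samples therefore removed none of them. These settings could not change the amplicon values and altered only which other CpGs were tested beside them. The 15 amplicon differences did so with pooled reads, on the log2 scale and without the highest CpG, and the 5 counts of called CpGs with limma; 4 of those counts were refitted on the compared samples alone and did so too.

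By the median CpG, 4 calls were lost: 3H LPS minus control at -0.188 on chromosome 23 and -0.180 on chromosome 5 (permutation adjusted p = 0.0635 for both), and 6H minus 3H controls at -0.140 (permutation adjusted p = 0.190) and -0.201 (permutation adjusted p = 0.0635). The medians of the compared groups overlapped in each case except that of controls on chromosome 5. With the replicate number as a block, the same 4 differences, -0.192, -0.162, -0.157 and -0.199, could not pass, since 5 sign flips give p = 0.0625 at the least; the difference between sets kept its call on chromosomes 23 and 5 (permutation adjusted p = 0.0317 for both). The sources do not say whether a shared replicate number means more than a number. Within sets, correlations of the deviations of same-numbered samples over the tested CpGs ran from -0.537 to 0.600, over 0.1 in 4 of 5 pairs of the 6H set and in 3 of 5 of the 3H set. Between sets, same-numbered samples were over 0.1 in 3 of 5 LPS pairs (-0.410 to 0.408) and 2 of 5 control pairs (-0.372 to 0.540). The block changed no count of called CpGs.

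Leaving out each sample in turn, 3H LPS minus control ranged from -0.214 to -0.170 on chromosome 23, -0.188 to -0.0882 on chromosome 3 and -0.177 to -0.147 on chromosome 5. The 6H difference ranged from 0.0357 to 0.0739, 0.0515 to 0.144 and 0.107 to 0.149 in the same order. The difference of controls ranged from -0.179 to -0.135, -0.0794 to 0.0273 (with 0.0134 as the other value above 0) and -0.214 to -0.182. The difference of LPS groups ranged from 0.0704 to 0.109, 0.157 to 0.234 and 0.0702 to 0.112, and the difference between sets from 0.227 to 0.271, 0.174 to 0.281 and 0.269 to 0.310. Called CpGs ranged from 0 to 1 in each comparison of 2 groups and from 0 to 3 between sets. The count stayed at 0 in 16 of 20 omissions for 3H LPS minus control and in 17 for 6H LPS minus control. For 6H minus 3H it did so in 18 among controls and in 19 among LPS samples. The cause of lost calls was not tested. With 5 against 4 samples the smallest possible exact permutation p is 0.00794, the same as with 5 against 5. In the amplicon calls lost by an omission, the compared groups still did not overlap.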
